A study of Mus musculus with 24 samples.

Results

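CXC chemokines are small secreted proteins that steer leukocytes through G protein-coupled receptors. Cxcl1, Cxcl2 and Cxcl5 bind CXCR2 and attract neutrophils. Cxcl9, Cxcl10 and Cxcl11 bind CXCR3, attract activated T cells and NK cells, and are classical interferon-induced genes. Cxcl12 (the CXCR4 ligand), Cxcl13 (the CXCR5 ligand, a B cell attractant), Cxcl14 and Cxcl16 (a membrane-bound CXCR6 ligand and scavenger receptor) complete the set. In macrophages, TLR4 signals through MyD88 to NF-kappaB and through TRIF to IRF3 and interferon beta, and secreted interferon acts back on the same cells through its receptor.

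The 10 genes were all probes of the array whose gene name was one of these 10 symbols, that is 12 probes of 41174 and 10 of 21597 gene symbols. All 10 passed the detection filter and were among the 17347 genes tested. Of them, 3 were grouped as neutrophil-attracting (Cxcl1, Cxcl2, Cxcl5), 3 as interferon-dependent (Cxcl9, Cxcl10, Cxcl11) and 4 as others.

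The arrays held RNA from C57BL/6 mouse cells treated with KLA (Kdo2-lipid A, a defined lipopolysaccharide core that activates TLR4) for 1 h or 12 h, or from their controls. The cells were elicited peritoneal macrophages (EPM, adherent lavage cells after thioglycollate), bone marrow-derived macrophages (BMDM, grown in L-cell conditioned medium as a source of M-CSF) and splenic B cells left after magnetic depletion of CD43- and CD11b-positive cells. Each cell type had 4 conditions with 2 biological replicates each. EPM and B cells had an untreated control without a time, KLA 1 h, DMSO 12 h and KLA 12 h, and BMDM had DMSO 1 h, KLA 1 h, DMSO 12 h and KLA 12 h. Every change at 1 h is therefore against untreated cells in EPM and B cells and against DMSO in BMDM.

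Each of the 12 two-colour arrays carried both replicates of a single condition, replicate 1 in Cy5 and replicate 2 in Cy3, so the spread between replicates does not include the spread between arrays. The 3 slides each held the arrays of 1 cell type, so effects of the slide and of the cell type cannot be told apart. Between 57.4% and 65% of probes were well above background in a channel, and no spot was saturated. The brightest spots reached a scanner signal of 245565 to 355402 in the KLA channels of both macrophages, while Cxcl10 reached at most 92470. Macrophage markers were well above background in every EPM and BMDM sample (9 of 9), with a summed intensity of 394945 to 632895 against 2613 to 6756 in B cells. All 8 B cell markers were well above background in every B cell sample, with sums of 211871 to 262250. Mesothelial and fibroblast markers were higher in EPM (59124 to 104385, against 4464 to 7585 in BMDM). Neutrophil markers summed to 1255 to 2186 in EPM. In BMDM they moved with KLA, from 14546 to 15139 in DMSO 1 h to 21245 to 25007 in KLA 1 h, and from 10121 to 11826 in DMSO 12 h to 19976 to 22935 in KLA 12 h. Of the 9 such markers, 5 rose and 0 fell at 1 h, beside 11% of all genes higher and 17.6% lower in BMDM. At 12 h 5 rose and 1 fell, beside 28.6% of all genes higher and 36.3% lower. The part of cells with these markers in the BMDM chemokine values was not tested.

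In the authors' table of normalized values, the B cell columns of KLA 1 h and DMSO 12 h lay closest to each other's scanner channels (r = 0.964 to 0.971) and correlated negatively with their own (r = -0.747 to -0.681). The other 20 columns matched their own channels best. In the scanner data as labelled, both 12 h groups lay together and apart from the early groups in cell markers. The B cell marker Cd22 averaged 12.47 untreated, 12.43 with KLA 1 h, 13.99 with DMSO 12 h and 13.84 with KLA 12 h, and the macrophage marker Emr1 averaged 7.52, 7.44, 10.88 and 10.61 in the same order. As labelled, 897 genes changed with KLA at 1 h and 918 at 12 h, and with the labels exchanged 8218 and 8526. B cell results are given as labelled in the scanner data and with these labels exchanged.

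Promoter sequences are shown for 4 members whose courses over time are compared, Cxcl1 and Cxcl2 from the neutrophil-attracting group and Cxcl9 and Cxcl10 from the interferon-dependent group. They are the 250 bases before the RefSeq transcript start on GRCm38.p6, at chr5:90890995-90891244 (Cxcl1, plus strand), chr5:90903649-90903898 (Cxcl2, plus strand), chr5:92328080-92328329 (Cxcl9, minus strand) and chr5:92348890-92349139 (Cxcl10, minus strand), written 5′ to 3′ along the gene. Capitals mark matches, on either strand, to a loose kappaB pattern (GGG, any 5 bases, CC) or to the interferon-stimulated response element core GAAANNGAAA.
Cxcl1: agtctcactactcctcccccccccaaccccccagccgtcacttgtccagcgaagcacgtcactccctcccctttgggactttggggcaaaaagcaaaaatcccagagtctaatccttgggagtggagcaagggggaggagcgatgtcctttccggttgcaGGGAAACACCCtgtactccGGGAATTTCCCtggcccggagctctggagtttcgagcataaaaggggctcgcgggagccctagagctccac
Cxcl2: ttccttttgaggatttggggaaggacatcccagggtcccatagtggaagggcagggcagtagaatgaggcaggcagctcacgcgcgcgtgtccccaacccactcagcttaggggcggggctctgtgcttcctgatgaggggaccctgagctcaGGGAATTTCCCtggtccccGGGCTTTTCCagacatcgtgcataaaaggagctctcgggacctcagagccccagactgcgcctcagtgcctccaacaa
Cxcl9: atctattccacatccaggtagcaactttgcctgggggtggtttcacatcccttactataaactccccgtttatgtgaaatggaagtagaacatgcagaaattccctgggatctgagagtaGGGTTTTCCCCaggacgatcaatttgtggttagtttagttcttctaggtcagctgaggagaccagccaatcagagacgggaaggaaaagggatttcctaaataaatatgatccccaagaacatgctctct
Cxcl10: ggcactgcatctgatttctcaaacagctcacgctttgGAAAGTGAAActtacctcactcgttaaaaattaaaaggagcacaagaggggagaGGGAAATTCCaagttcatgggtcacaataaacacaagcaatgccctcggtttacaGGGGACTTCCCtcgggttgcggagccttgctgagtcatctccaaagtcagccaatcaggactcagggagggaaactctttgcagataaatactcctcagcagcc
Cxcl1 and Cxcl2 shared the run GGGAATTTCC, at positions -71 to -62 and -97 to -88 from the start. A further loose kappaB match followed at -78 to -69 in Cxcl2 and preceded it at -90 to -81 in Cxcl1. Cxcl10 held GAAAGTGAAA at -213 to -204 together with kappaB matches at -159 to -150 and around -104 to -94. Cxcl9 held a kappaB match at -130 to -121 and no GAAANNGAAA in this window. Of the 7 members with a RefSeq window (Cxcl1, Cxcl2, Cxcl9, Cxcl10, Cxcl12, Cxcl13, Cxcl14), 6 held the loose kappaB pattern, which was found before the start in 45.8% of all 32817 windows. GAAANNGAAA occurred in 2 of 7 (Cxcl10 and Cxcl14) and in 2.97% of all windows. A stricter pattern (GGGA, any 4 bases, CC) occurred in 5 of 7 and in 17.6% of all windows. A match on one strand often overlapped a match on the other and marks letters, not a bound site.

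**Figure D1:**
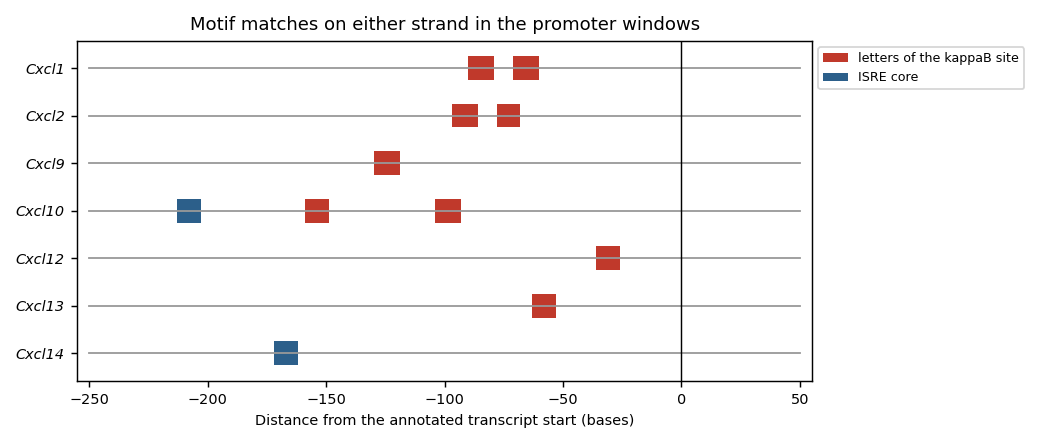
Positions of kappaB pattern matches (red) and interferon-stimulated response element core matches (blue) on either strand, for 7 members, along 300 bases around the annotated transcript start (x axis, in bases; each line is 1 promoter). The Cxcl1 and Cxcl2 matches lie within -97 to -61, and Cxcl10 is the 1 member with matches to both patterns.

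The array probes of 8 members lay on chromosome 5 or 6 of mm8, the build of the array annotation. Cxcl5 (chr5:91836379-91836438), Cxcl1 (chr5:91968019-91968078) and Cxcl2 (chr5:91980708-91980767) form a plus-strand group. Cxcl9 (chr5:93398365-93398424), Cxcl10 (chr5:93421955-93422014) and Cxcl11 (chr5:93436297-93436448) form a minus-strand group. Cxcl13 lies at chr5:96201144-96201203 and Cxcl12 at chr6:117146828-117146887, while Cxcl14 lies at chr13:56298339-56298398 and Cxcl16 at chr11:70272214-70274955. RefSeq lists Cxcl11 of the GRCm38.p6 assembly as a transcribed pseudogene, so its values are RNA levels of a gene without an annotated protein there.

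**Figure D2:**
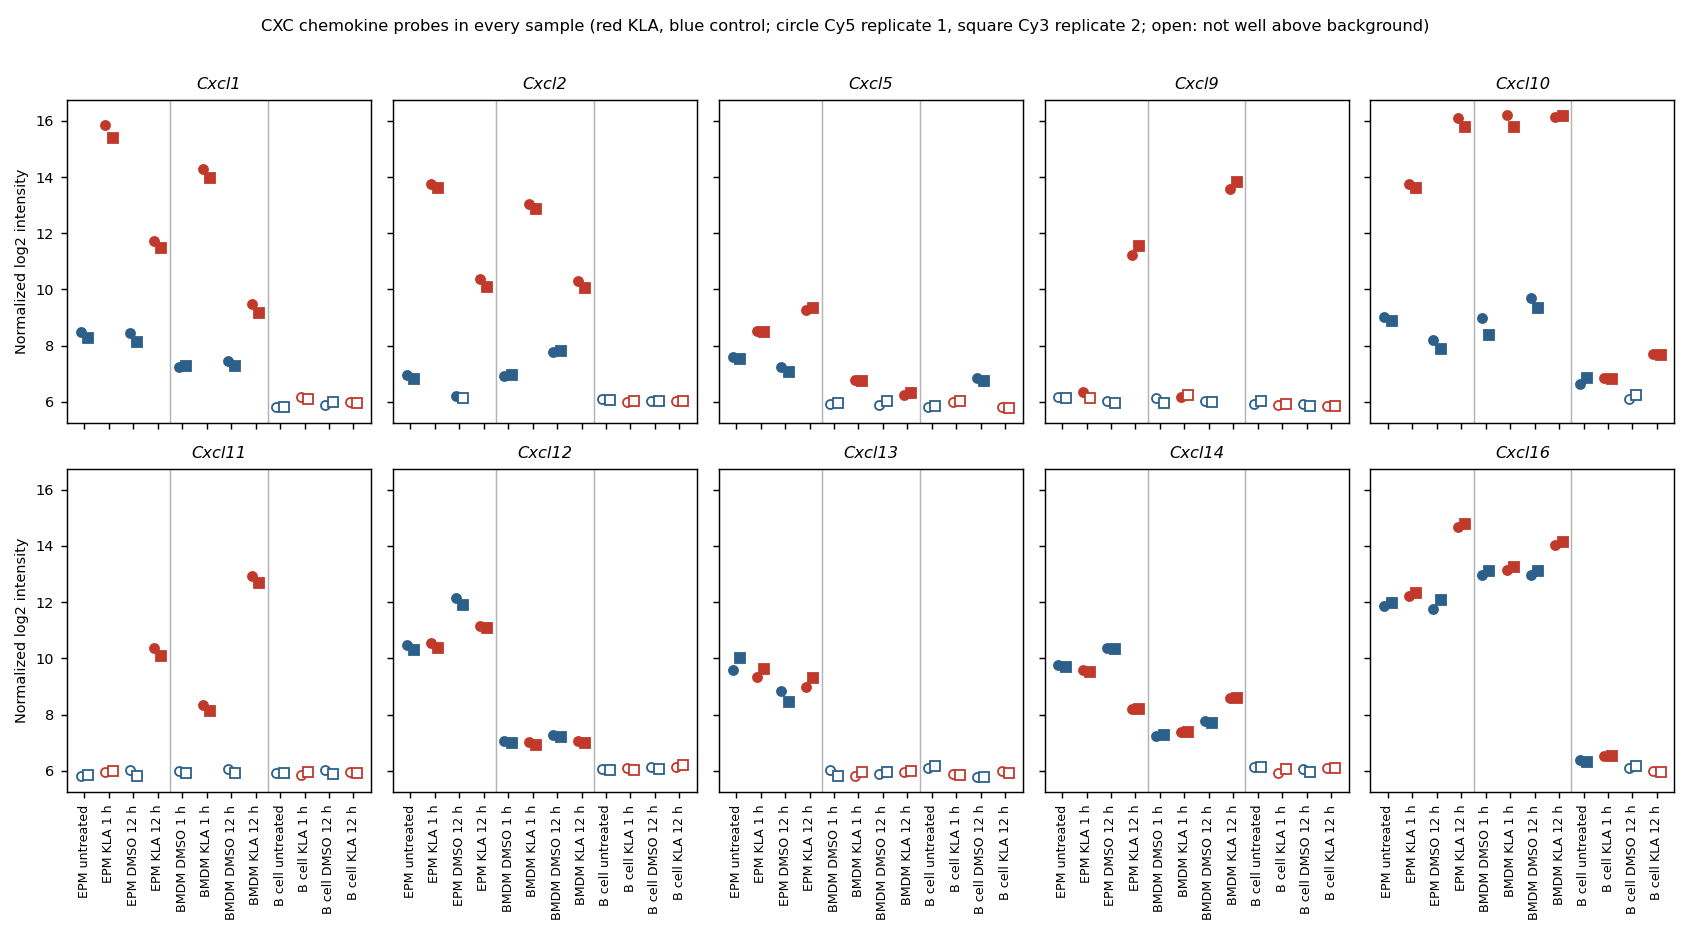
Normalized log2 intensity (y axis) of each CXC chemokine in all 24 samples, by condition (x axis). Red points are KLA and blue points controls, circles are replicate 1 (Cy5), squares replicate 2 (Cy3), and open points were not well above background. Cxcl1 and Cxcl2 peak at KLA 1 h, Cxcl9 and Cxcl11 at KLA 12 h, and most B cell points are open.

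The neutrophil-attracting chemokines answered KLA within 1 h in both macrophages, Cxcl1 and Cxcl2 by over 6 on the log2 scale. Cxcl1 in EPM measured 8.50 and 8.27 on the log2 intensity scale in untreated cells and 15.85 and 15.40 after KLA for 1 h. At 12 h it measured 8.44 and 8.15 with DMSO and 11.72 and 11.48 with KLA. The KLA values lay far above the control values at both times, without overlap. Cxcl1 rose 151-fold at 1 h (log2 change 7.24 ± 0.15 (SE), limma adjusted p = 3.08e-17) and 9.87-fold at 12 h (3.30 ± 0.15, adjusted p = 7.1e-13). In BMDM it measured 7.23 and 7.29 with DMSO 1 h, 14.30 and 13.96 with KLA 1 h, 7.46 and 7.27 with DMSO 12 h, and 9.5 and 9.16 with KLA 12 h. The rise was 117-fold at 1 h (6.87 ± 0.15, adjusted p = 7.29e-17) and 3.91-fold at 12 h (1.97 ± 0.15, adjusted p = 9.5e-10).

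Cxcl2, the other major early CXCR2 ligand, followed the same course. In EPM it measured 6.94 and 6.82 untreated, 13.74 and 13.60 with KLA 1 h, 6.19 and 6.15 with DMSO 12 h (well above background in 1 of 2 samples), and 10.38 and 10.09 with KLA 12 h. In BMDM it measured 6.93 and 6.95 with DMSO 1 h, 13.06 and 12.88 with KLA 1 h, 7.78 and 7.79 with DMSO 12 h, and 10.29 and 10.04 with KLA 12 h. At 12 h the KLA values of the 2 macrophages overlapped, while the DMSO level was higher in BMDM. The rise at 1 h was 110-fold in EPM (6.78 ± 0.09, adjusted p = 5.03e-20) and 65.1-fold in BMDM (6.02 ± 0.09, adjusted p = 6.35e-19). At 12 h it was 16.8-fold in EPM (4.07 ± 0.09, adjusted p = 2.36e-17) and 5.2-fold in BMDM (2.38 ± 0.09, adjusted p = 5.27e-14).

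Cxcl5 moved less and with another course. In EPM it measured 7.60 and 7.53 untreated, 8.53 and 8.49 with KLA 1 h, 7.26 and 7.05 with DMSO 12 h, and 9.29 and 9.35 with KLA 12 h. It rose 1.92-fold at 1 h (0.94 ± 0.07, adjusted p = 5.96e-09) and 4.48-fold at 12 h (2.16 ± 0.07, adjusted p = 5.96e-15). In BMDM the probe was not well above background in either control (5.91 and 5.96 at 1 h, 5.88 and 6.04 at 12 h). It measured 6.77 and 6.74 with KLA 1 h and 6.25 and 6.32 with KLA 12 h. The BMDM rise was at least 1.61-fold at 1 h (adjusted p = 4.14e-08) and at least 1.16-fold at 12 h (adjusted p = 0.000518). Such a bound sets the KLA mean against the lowest signal well above background on each control channel, or the probe's own signal where that was higher.

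The interferon-dependent chemokines divided at 1 h. Cxcl10 was up at 1 h in both macrophages, Cxcl11 in BMDM, and Cxcl9 passed the test in neither. Cxcl10 in EPM measured 9.0 and 8.86 untreated, 13.76 and 13.60 with KLA 1 h, 8.21 and 7.88 with DMSO 12 h, and 16.11 and 15.77 with KLA 12 h. The rise was 26.8-fold at 1 h (4.74 ± 0.17, adjusted p = 1.62e-13) and 238-fold at 12 h (7.90 ± 0.17, adjusted p = 1.62e-17). In BMDM it measured 8.97 and 8.39 with DMSO 1 h and 16.22 and 15.78 with KLA 1 h. At 12 h the BMDM values were 9.69 and 9.35 with DMSO and 16.14 and 16.17 with KLA. The KLA 12 h values of BMDM thus lay within the range of the KLA 1 h values. The BMDM rise was 160-fold at 1 h (7.32 ± 0.17, adjusted p = 2.56e-16) and 99.5-fold at 12 h (6.64 ± 0.17, adjusted p = 2.11e-16).

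Cxcl9 was not well above background in any macrophage control (5.95 to 6.16 over the 8 samples). At KLA 1 h it was well above background in 1 of 2 samples in each macrophage, at 6.36 and 6.14 in EPM and 6.18 and 6.24 in BMDM. These 1 h values did not pass the test (log2 change 0.11 in EPM, adjusted p = 0.486, and 0.17 in BMDM, adjusted p = 0.224). With Feature Extraction's processed signals in place of the normexp values they did, at 1.11 in EPM (adjusted p = 0.0208) and 1.94 in BMDM (adjusted p = 0.000418). At KLA 12 h it measured 11.23 and 11.56 in EPM and 13.57 and 13.84 in BMDM, far above all controls. The rise at 12 h was at least 40.6-fold in EPM (adjusted p = 1.57e-18) and at least 203-fold in BMDM (adjusted p = 1.83e-20).

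Cxcl11 was likewise not well above background in any macrophage control (5.80 to 6.07). In EPM it stayed there at KLA 1 h (5.95 and 5.99) and reached 10.36 and 10.10 at KLA 12 h. In BMDM it was already 8.33 and 8.13 at KLA 1 h and reached 12.93 and 12.67 at KLA 12 h. Cxcl11 thus rose at 1 h in BMDM, at least 4.47-fold (adjusted p = 2.76e-12), whereas in EPM neither group was measurable. At 12 h it rose at least 18.1-fold in EPM (adjusted p = 3.9e-17) and at least 111-fold in BMDM (adjusted p = 9.53e-20).

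Among the other members, Cxcl16 was higher with KLA at 12 h in both macrophages. In EPM it measured 11.85 and 11.97 untreated, 12.22 and 12.31 with KLA 1 h, 11.75 and 12.06 with DMSO 12 h, and 14.69 and 14.77 with KLA 12 h. In BMDM it measured 12.96 and 13.12 with DMSO 1 h, 13.14 and 13.26 with KLA 1 h, 12.98 and 13.12 with DMSO 12 h, and 14.03 and 14.13 with KLA 12 h. The 12 h values with KLA stood apart in both cell types, at 7.06-fold in EPM (2.82 ± 0.09, adjusted p = 4e-15) and 2.03-fold in BMDM (1.02 ± 0.09, adjusted p = 7.43e-09). At 1 h the log2 change was 0.36 in EPM (adjusted p = 0.00457) and 0.16 in BMDM (adjusted p = 0.194), and without untreated EPM replicate 1 the EPM change was 0.30 (adjusted p = 0.0598). A second Cxcl16 probe at chr11:70270473-70270532 gave 0.95 in EPM (adjusted p = 1.08e-06) and 0.57 in BMDM (adjusted p = 0.000393) at 1 h. The 2 probes thus disagree on the early change in BMDM. That BMDM change also passed with processed signals (0.58, limma adjusted p = 0.00241) and in the authors' table (0.35, adjusted p = 0.0307). It passed without quantile normalization between arrays (0.25, adjusted p = 0.0382) and with the mean of probes (0.36, adjusted p = 7.83e-06).

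Cxcl14, a chemokine of epithelia and stroma, moved in opposite directions in the 2 macrophages at 12 h. In EPM it measured 9.78 and 9.70 untreated, 9.57 and 9.53 with KLA 1 h, 10.36 and 10.32 with DMSO 12 h, and 8.20 and 8.21 with KLA 12 h. In BMDM it measured 7.25 and 7.28 with DMSO 1 h, 7.38 and 7.37 with KLA 1 h, 7.78 and 7.69 with DMSO 12 h, and 8.59 and 8.59 with KLA 12 h. It fell by 2.13 on the log2 scale in EPM (SE 0.06, adjusted p = 2.53e-16) and rose by 0.86 in BMDM (SE 0.06, adjusted p = 1.32e-10). The 1 h change in EPM was -0.19 (adjusted p = 0.0141), and it did not pass without untreated replicate 1 (-0.15, adjusted p = 0.129) or without KLA 1 h replicate 2 (-0.17, adjusted p = 0.0949).

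Cxcl12, the homeostatic CXCR4 ligand, measured 10.46 and 10.30 in untreated EPM, 10.54 and 10.37 with KLA 1 h, 12.13 and 11.89 with DMSO 12 h, and 11.15 and 11.07 with KLA 12 h. The 12 h KLA samples therefore lay below the 12 h DMSO samples and above the untreated ones. The change was 0.08 at 1 h (adjusted p = 0.537), and at 12 h it fell by 0.90 (SE 0.08, adjusted p = 1.84e-08). In BMDM it stayed between 6.91 and 7.26 in all 8 samples. The BMDM change at 12 h was -0.21 (adjusted p = 0.0323), and leaving out any one of its 4 samples gave -0.23 to -0.18 with adjusted p from 0.0558 to 0.142. A second Cxcl12 probe, annotated to another transcript at chr6:117140075-117140134, gave 0.44 in EPM at 1 h (adjusted p = 0.000106) and -0.92 at 12 h (adjusted p = 2.46e-09). The 2 probes thus disagree at 1 h.

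Cxcl13 was measured in EPM, where it read 9.58 and 10.02 untreated, 9.35 and 9.62 with KLA 1 h, 8.84 and 8.44 with DMSO 12 h, and 8.98 and 9.29 with KLA 12 h. It was not well above background in any BMDM or B cell sample (5.77 to 6.17). In EPM the change was -0.31 at 1 h (adjusted p = 0.105) and 0.49 at 12 h (adjusted p = 0.00562). The 12 h change did not pass without DMSO 12 h replicate 2 (0.29, adjusted p = 0.128) or KLA 12 h replicate 2 (0.34, adjusted p = 0.0985), and the 1 h change passed without untreated replicate 1 (-0.54, adjusted p = 0.0144).

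Mesothelial and fibroblast markers were also measured in EPM. Of 8 such markers, 5 fell and 1 rose with KLA at 12 h (median log2 change -0.47), beside 34.3% of all genes lower and 19.6% higher. Their summed intensity was 86883 to 89880 with KLA 12 h, 92072 to 104385 with DMSO 12 h and 59124 to 64568 untreated. From untreated to DMSO 12 h, 5 of the 8 rose and 1 fell, beside 19.1% of all genes changed. In BMDM 3 of the 8 rose and 0 fell with KLA at 12 h, beside 28.6% of all genes higher and 36.3% lower. In bulk RNA, fewer cells of a type and less RNA per cell cannot be told apart. The part of these cells in the Cxcl12 and Cxcl14 values was not tested.

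By count, 6 of 10 members passed the test at 1 h in EPM (5 higher, 1 lower), beside 29.1% of all genes in either direction. At 12 h in EPM 10 of 10 passed (8 higher, 2 lower), beside 53.9%. In BMDM 5 passed at 1 h, all higher, beside 28.6%, and 9 at 12 h (8 higher, 1 lower), beside 65%. Over all genes, the EPM shares were 9.39% higher and 19.7% lower after 1 h, then 19.6% higher and 34.3% lower after 12 h. The BMDM shares were 11% higher and 17.6% lower after 1 h, then 28.6% higher and 36.3% lower after 12 h. The median change of the 3 neutrophil-attracting members went from 6.78 at 1 h to 3.30 at 12 h in EPM and from 6.02 to 1.97 in BMDM. That of the 3 interferon-dependent members was 5.40 in EPM at 12 h and went from 2.27 to 6.81 in BMDM, while the median over all genes lay between -0.06 and -0.03. With Cxcl9 and Cxcl11 at their bounds, the interferon-dependent median was 5.34 in EPM at 12 h, 2.16 in BMDM at 1 h and 6.79 at 12 h. For EPM at 1 h no such median is given, since Cxcl11 was not measurable in either group and Cxcl9 in 1 of 2 KLA samples.

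**Figure D3:**
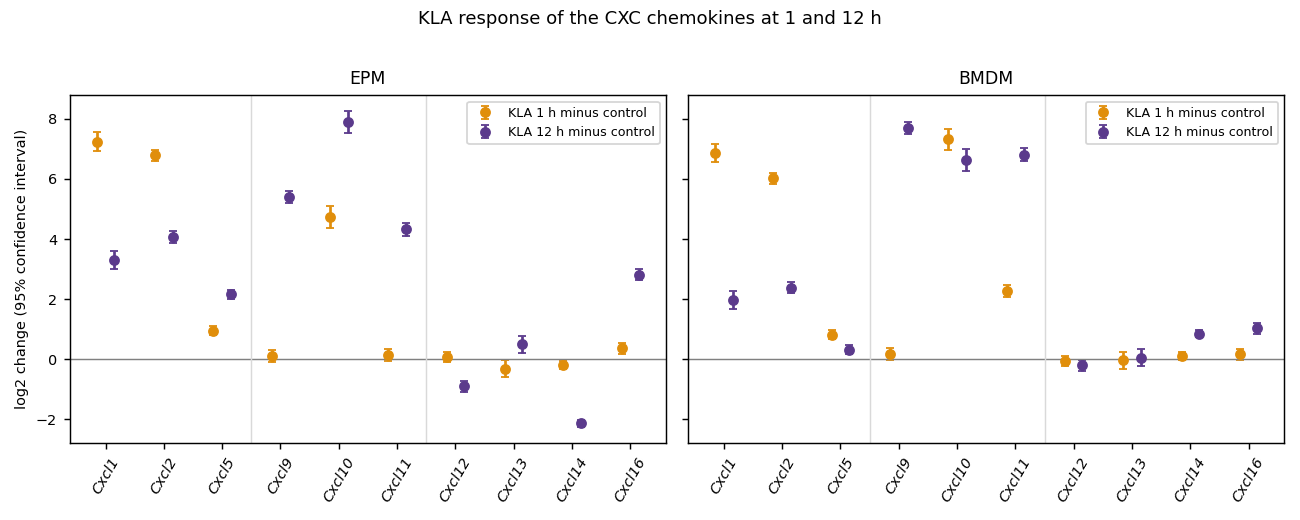
Log2 change with KLA (y axis, points with 95% confidence intervals from limma), at 1 h against untreated cells in EPM and DMSO 1 h in BMDM and at 12 h against DMSO 12 h, for each member (x axis) in EPM and BMDM, at 1 h in orange and 12 h in purple. Cxcl1 and Cxcl2 sit higher at 1 h (6.02 to 7.24) than at 12 h (1.97 to 4.07), and Cxcl9 and Cxcl11 the other way. Cxcl9, Cxcl11 and BMDM Cxcl5 points use controls that were not well above background.

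With each array taken as 1 sample and both controls of a cell type as its 2 control arrays, Cxcl1, Cxcl2 and Cxcl10 passed in both macrophages at both times. Cxcl9, Cxcl11 and Cxcl16 passed in both at 12 h, Cxcl11 in BMDM at 1 h, and Cxcl5 and Cxcl14 in EPM at 12 h. No other change with KLA in EPM or BMDM passed in that fit over the 8 macrophage arrays. The Cxcl12 and Cxcl13 changes in EPM at 12 h were each -0.089 there (adjusted p = 0.952 and 0.933), against -0.90 and 0.49.

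Whether the response differed between the times was tested directly, as the 12 h change minus the 1 h change. In EPM this difference passed for 10 of 10 members (43.7% of all genes) and in BMDM for 8 of 10 (54.4%). Cxcl1 responded less at 12 h, by -3.94 ± 0.21 in EPM (adjusted p = 2.1e-11) and -4.90 ± 0.21 in BMDM (adjusted p = 7.83e-13). Cxcl2 did so by -2.72 ± 0.13 in EPM (adjusted p = 3.98e-12) and -3.64 ± 0.13 in BMDM (adjusted p = 6.42e-14). Cxcl5, the third CXCR2 ligand, differed in sign, with a larger late response in EPM (1.22 ± 0.10, adjusted p = 9.18e-09) and a smaller one in BMDM (adjusted p = 0.000295), for which no size is given because both BMDM controls were not well above background. With each macrophage array as 1 sample neither Cxcl5 difference passed (adjusted p = 0.081 and 0.204). In that fit both controls of a cell type form 1 group, so the difference between times is that of the KLA levels themselves. Cxcl1, Cxcl2, Cxcl9, Cxcl11 and Cxcl16 passed there in each macrophage, where fewer of all genes did than with channels as samples.

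Cxcl9 responded more at 12 h, by 5.30 ± 0.14 in EPM (adjusted p = 1.22e-15) and 7.52 ± 0.14 in BMDM (adjusted p = 2.27e-17). Cxcl11 did so by 4.18 ± 0.14 in EPM (adjusted p = 3.41e-14) and 4.54 ± 0.14 in BMDM (adjusted p = 1.32e-14). These 4 differences use control values that were not well above background. Cxcl10 responded more at 12 h in EPM (3.16 ± 0.24, adjusted p = 4.45e-09), where its control fell by 0.89 from untreated to DMSO 12 h (adjusted p = 0.000955). With macrophage arrays as samples the EPM difference was 2.26 (adjusted p = 0.0708). In BMDM the difference was -0.68 ± 0.24 (adjusted p = 0.0238), and its control rose by 0.84 from DMSO 1 h to DMSO 12 h (adjusted p = 0.00143). That BMDM difference did not pass without DMSO 1 h replicate 2 (-0.39), KLA 1 h replicate 1 (-0.46), DMSO 12 h replicate 1 (-0.51) or KLA 12 h replicate 1 (-0.67), with adjusted p from 0.0568 to 0.168. With macrophage arrays as samples it was 0.16 (adjusted p = 0.902), with processed signals -0.72 (adjusted p = 0.116) and in the authors' table -0.37 (adjusted p = 0.256).

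Of the others, Cxcl16 responded more at 12 h in EPM (2.46, adjusted p = 1.24e-11) and BMDM (0.86, adjusted p = 1.08e-05). Its second probe gave 1.39 in EPM (adjusted p = 3.39e-07) and 0.21 in BMDM (adjusted p = 0.238), and processed signals gave 0.22 in BMDM (adjusted p = 0.31). Cxcl14 changed by -1.94 between the times in EPM (adjusted p = 4.6e-13) and 0.75 in BMDM (adjusted p = 2.12e-07). In EPM the difference was -0.98 for Cxcl12 (adjusted p = 1.14e-06) and 0.81 for Cxcl13 (adjusted p = 0.00255), and neither passed in BMDM. With macrophage arrays as samples both EPM differences turned, to 0.65 for Cxcl12 (adjusted p = 0.669) and -0.36 for Cxcl13 (adjusted p = 0.755). Processed signals kept their direction without passing (-1.0, adjusted p = 0.129, and 0.85, adjusted p = 0.206). The Cxcl14 differences were -1.34 in EPM (adjusted p = 0.0819) and 1.21 in BMDM (adjusted p = 0.0847) over macrophage arrays.

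The 2 macrophages were then compared by the difference of their responses, each measured within its own slide. At 1 h this passed for 4 of 10 members (9.56% of all genes) and at 12 h for 9 of 10 (47.8%). With each macrophage array as 1 sample, no gene tested passed at 1 h, members included. At 12 h Cxcl1, Cxcl9, Cxcl11 and Cxcl16 passed in that fit, where far fewer of all genes did than with channels as samples. Each KLA condition had 1 array there. With channels as samples, Cxcl1 (0.37, 95% interval -0.07 to 0.81) and Cxcl5 (0.12, -0.08 to 0.33) did not pass at 1 h. Cxcl2 responded more in EPM at 1 h, by 0.76 ± 0.13 (adjusted p = 0.000509). The Cxcl2 difference was 0.82 with processed signals (adjusted p = 0.183) and 1.54 over macrophage arrays (adjusted p = 1), and that of Cxcl5 was -2.82 with processed signals (adjusted p = 2.3e-06). Cxcl10 responded more in BMDM, with a difference of -2.58 ± 0.24 (adjusted p = 6.1e-07), which was -1.71 over macrophage arrays (adjusted p = 1). Cxcl11 also responded more in BMDM (adjusted p = 6.83e-09, and 0.0759 over macrophage arrays), with no size given because it was above background in BMDM KLA 1 h alone of the 4 conditions. Cxcl14 differed by -0.30 (adjusted p = 0.0191), a call lost without untreated EPM replicate 1, EPM KLA 1 h replicate 2, BMDM DMSO 1 h replicate 1 or either BMDM KLA 1 h replicate (-0.30 to -0.26, adjusted p from 0.0507 to 0.0938).

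At 12 h all 3 neutrophil-attracting chemokines responded more in EPM, by 1.34 ± 0.21 for Cxcl1 (adjusted p = 3.54e-05), 1.69 ± 0.13 for Cxcl2 (adjusted p = 4.9e-09) and 1.84 ± 0.10 for Cxcl5 (adjusted p = 4.75e-11). Cxcl9 and Cxcl11 responded more in BMDM, with differences of -2.29 ± 0.14 (adjusted p = 3.14e-10) and -2.49 ± 0.14 (adjusted p = 1.01e-10). The Cxcl5, Cxcl9 and Cxcl11 differences rest on BMDM controls, and for Cxcl9 and Cxcl11 also EPM controls, that were not well above background. With processed signals the Cxcl5 difference was 0.25 (adjusted p = 0.442). Over macrophage arrays that of Cxcl2 was 0.91 (adjusted p = 0.462) and that of Cxcl5 1.62 (adjusted p = 0.061). Cxcl10 went the other way at 1.26 ± 0.24 (adjusted p = 0.000311), and at 0.40 over macrophage arrays (adjusted p = 0.787). The controls differed here: the DMSO 12 h mean of Cxcl10 was 8.04 in EPM and 9.52 in BMDM, and the KLA 12 h means were 15.94 and 16.16. For Cxcl2 the DMSO 12 h means were 6.17 and 7.79 and the KLA 12 h means 10.24 and 10.16. From the early control to DMSO 12 h, 19.1% of all genes in EPM and 23.2% in BMDM changed. Over that time Cxcl2 fell by 0.71 in EPM (adjusted p = 1.44e-05) and rose by 0.84 in BMDM (adjusted p = 1.85e-06), and Cxcl10 fell by 0.89 in EPM (adjusted p = 0.000955).

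The remaining 12 h differences were 1.80 ± 0.12 for Cxcl16 (adjusted p = 1.56e-09), -2.99 ± 0.08 for Cxcl14 (adjusted p = 9.14e-15) and -0.70 ± 0.11 for Cxcl12 (adjusted p = 5.91e-05). Over macrophage arrays that of Cxcl12 turned to 0.017 (adjusted p = 0.994) and that of Cxcl14 was -2.92 (adjusted p = 0.0571), and with processed signals that of Cxcl12 was -0.67 (adjusted p = 0.303). Cxcl13 did not pass (0.44, adjusted p = 0.0773), but did without EPM DMSO 12 h replicate 1 (0.63, adjusted p = 0.0156) or EPM KLA 12 h replicate 1 (0.59, adjusted p = 0.0318).

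**Figure D4:**
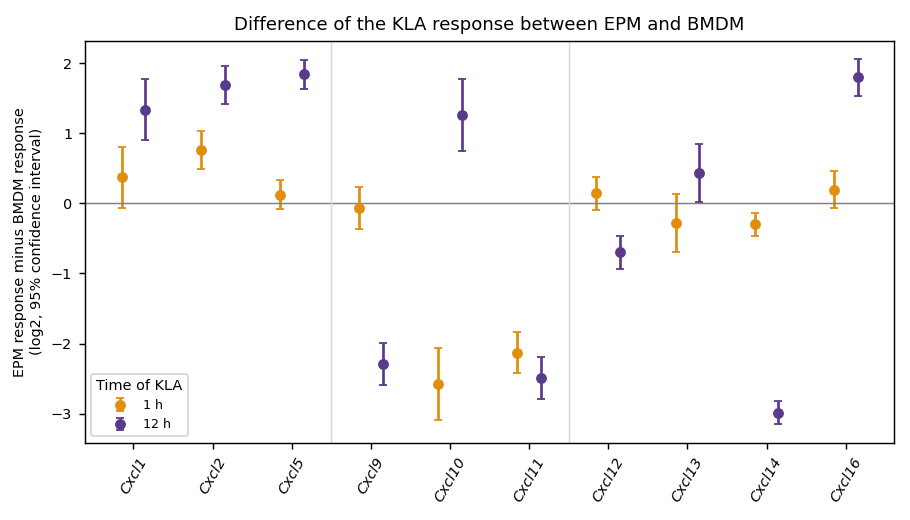
KLA response in EPM minus that in BMDM (y axis, log2, with 95% confidence intervals from limma) for each member (x axis) at 1 h (orange) and 12 h (purple). The 1 h response was against untreated cells in EPM and against DMSO 1 h in BMDM. Cxcl10 changes side, from -2.58 at 1 h to 1.26 at 12 h, and Cxcl14 is lowest at 12 h (-2.99). Cxcl5, Cxcl9 and Cxcl11 points use controls that were not well above background.

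Resting levels also differed. Between untreated EPM and BMDM in DMSO 1 h, 6 of 10 members passed the test (57.8% of all genes). Cxcl12 was 10.1-fold higher in EPM (3.34 ± 0.08, adjusted p = 8.66e-17), Cxcl13 at least 13.3-fold higher (adjusted p = 2.77e-14) and Cxcl14 5.56-fold higher (2.47 ± 0.06, adjusted p = 3.39e-17). Cxcl1 was 2.18-fold higher (1.13 ± 0.15, adjusted p = 2.55e-06) and Cxcl5 at least 2.82-fold higher (adjusted p = 3.74e-13), while Cxcl16 was lower in EPM (-1.13 ± 0.09, adjusted p = 2.57e-09). Beside these, all 8 mesothelial and fibroblast markers were higher in EPM (median log2 difference 3.44) and 7 of 9 neutrophil markers were lower (median -1.62). The part of such cells in the resting levels was not tested.

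In B cells most members were not measurable. Cxcl1, Cxcl2, Cxcl9, Cxcl11, Cxcl12, Cxcl13 and Cxcl14 were not well above background in any of the 8 samples. At 1 h 0 of 10 members passed by limma (5.17% of all genes), with 3 at an unadjusted p under 0.05 (Cxcl1, Cxcl5 and Cxcl14, none of them well above background). At 12 h 2 of 10 passed (5.29%). Cxcl10 measured 6.64 and 6.84 untreated, 6.83 and 6.82 with KLA 1 h, 6.11 and 6.23 with DMSO 12 h (not well above background), and 7.70 and 7.69 with KLA 12 h. It was at least 2.87-fold higher with KLA at 12 h (adjusted p = 6.96e-06). With the labels exchanged the 12 h change was 0.86 (adjusted p = 0.000366) and the 1 h change -0.57 (adjusted p = 0.00973), against 0.09 (adjusted p = 0.848) as labelled.

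Cxcl5 was seen in B cells in the DMSO 12 h samples alone (6.84 and 6.74), and not well above background in the other 6. As labelled it was at least 1.74-fold lower with KLA at 12 h (adjusted p = 1.44e-08). With the labels exchanged it was instead 0.96 higher at 1 h (adjusted p = 2.25e-09) and -0.21 at 12 h (adjusted p = 0.016). Macrophage markers summed to 6710 to 6756 in DMSO 12 h, 6011 to 6015 in KLA 12 h and 2613 to 3300 in the other B cell samples, and their part in the Cxcl5 value was not tested. By its brightest probe, Cxcl16 was well above background in untreated cells (6.40 and 6.32) and KLA 1 h (6.52 and 6.52), and not at 12 h. The second Cxcl16 probe was well above background in every B cell sample. It averaged 7.36 untreated, 7.46 with KLA 1 h, 7.10 with DMSO 12 h and 6.96 with KLA 12 h. As labelled, the Cxcl16 changes did not pass with either probe. With the labels exchanged the brightest probe gave -0.54 at 12 h (adjusted p = 4.86e-05). The 12 h minus 1 h response has the same value under both labellings, 1.44 for Cxcl10 (adjusted p = 0.000766) and -1.17 for Cxcl5 (adjusted p = 2.09e-07), and these 2 were the members past the threshold (7.55% of all genes).

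Genes of the pathways upstream of both chemokine groups were measured in the same samples. The NF-kappaB list held 15 genes, of which 12 rose and 1 fell in EPM at 1 h, and 12 rose and 0 fell at 12 h. In BMDM 11 rose and 1 fell at 1 h, and 13 rose and 1 fell at 12 h. Of all genes, 29.1% changed in either direction at 1 h and 53.9% at 12 h in EPM, and 28.6% and 65% in BMDM. The inhibitor Nfkbia rose by 4.62 at 1 h and 2.75 at 12 h in EPM, and by 3.04 and 1.39 in BMDM. Nfkbiz, an atypical nuclear I-kappaB protein, rose by 6.23 and 2.26 in EPM and by 3.22 and 1.12 in BMDM. Tnfaip3, the A20 deubiquitinase, rose by 4.28 and 2.02 in EPM and by 4.40 and 2.26 in BMDM. For these 3 genes the 12 h change was smaller than the 1 h change in both macrophages, by the same test of the difference (-3.98 to -1.66, highest adjusted p = 1.99e-08). The list as a whole did not share that course. Its median change was 1.66 at 1 h and 1.64 at 12 h in EPM, and 0.98 and 1.12 in BMDM. In the test of the difference 3 of 15 passed as higher and 6 as lower in EPM, beside 43.7% of all genes in either direction. In BMDM 3 passed as higher and 8 as lower, beside 54.4%.

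The interferon list, as reported here, held 16 genes, of which 5 rose and 3 fell in EPM at 1 h and 4 rose and 2 fell in BMDM. At 12 h 12 rose and 3 fell in each. The shares of all genes changed in either direction were 29.1% and 28.6% at 1 h and 53.9% and 65% at 12 h, in EPM and BMDM. Interferon beta (Ifnb1) rose by 7.5 in EPM and 9.17 in BMDM at 1 h and by 1.22 and 4.32 at 12 h. Stat2 changed by -0.41 in EPM (adjusted p = 0.00379) and -0.27 in BMDM (adjusted p = 0.0524) at 1 h and was up by 3.63 in EPM and 2.71 in BMDM at 12 h. Irf7, which amplifies type I interferon, was up by 5.64 and 4.08 at 12 h, with 1 h changes of -0.26 (adjusted p = 0.378) and -0.11 (adjusted p = 0.755). Irf1 rose at both times, by 2.49 and 3.73 in EPM and 2.74 and 2.31 in BMDM.

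Receptors and further ligands were measured as well. Of 7 tested CXC receptors, 0 rose and 1 fell in EPM at 1 h, and 2 rose and 4 fell at 12 h. In BMDM 0 rose and 1 fell at 1 h, and 5 rose and 2 fell at 12 h. These counts stand beside 29.1% of all genes changed at 1 h and 53.9% at 12 h in EPM, and 28.6% and 65% in BMDM. Cxcr4, the Cxcl12 receptor, fell by 1.72 in EPM and fell by 2.28 in BMDM at 12 h. Cxcr3, the receptor of Cxcl9, Cxcl10 and Cxcl11, fell by 1.44 in EPM and fell by 2.5 in BMDM at 12 h. Cxcr6, the Cxcl16 receptor, rose by 2.53 in EPM and 0.63 in BMDM. Of the other CXC ligands, 3 of 4 were tested. Cxcl3, named Gm1960 on the array and a CXCR2 ligand, rose by 3.70 at 1 h and 3.14 at 12 h in EPM and by 2.49 and 1.72 in BMDM, while platelet factor 4 (Cxcl4 on the array) fell by 0.38 in EPM and fell by 1.14 in BMDM at 12 h.

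Over the 8 macrophage condition means, the patterns of the members can be described by Pearson correlation, with conditions that share slides and controls. Cxcl1 and Cxcl2 correlated at 0.941 and Cxcl9 and Cxcl11 at 0.954, whereas Cxcl1 and Cxcl9 correlated at 0.0288. Both samples of a condition measured Cxcl9 well above background at KLA 12 h alone, and Cxcl11 there and in BMDM KLA 1 h. The other condition means of these 2 genes lay near background. Cxcl10 lay between, at 0.825 with Cxcl2 and 0.793 with Cxcl11. Among 2109 genes whose means spanned at least 2 on the log2 scale, those most like Cxcl2 were Junb (0.986), Nfkbia (0.980), Tnfaip3 (0.978), Trim13 (0.974) and Arl5b (0.962). Those most like Cxcl10 were Traf1 (0.989), Irf1 (0.987), Nod2 (0.981), Ch25h (0.981) and Hspa1b (0.971).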

How the data were processed

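Scanner output of 12 two-colour arrays (Agilent Feature Extraction 9.5.3.1, per the submitters' processing notes) gave spot intensity in 24 channels, as deposited. The authors' table of normalized intensity values, whose scaling is not given in the sources used here, served as an alternative. Mean signals were background-corrected (normexp, offset 50), loess-normalized within arrays and quantile-normalized between arrays (Aquantile) in limma 3.58.1 under R 4.3.3, giving log2 values. A gene was kept where both channels of at least 1 condition were well above background, each by its brightest probe, and outlier spots were dropped (134 missing values, 0 among members). The limma fit had a coefficient for each condition, leaving 12 degrees of freedom. P-values were adjusted by Benjamini-Hochberg across the genes tested (threshold 0.05). P-values measure the spread between the 2 channels of an array. The replicate number is also the dye. Cy5 minus Cy3 correlated at 0.265 to 0.626 over 66 pairs of arrays. An effect of the dye and a pairing of samples by replicate number cannot be told apart here. A fit with dye as block was an alternative. Named were the 10 members, the 4 or fewer genes of largest change per list and the 5 genes most like Cxcl2 and Cxcl10. Members and lists were chosen with earlier results of these data known. A gene of the interferon list is not reported here. The fit was run on simulated data with independent noise in each channel. That setting held neither correlated Cy5 minus Cy3 differences nor a spread between arrays, so it does not test the p-values against these. Promoters came from RefSeq (GRCm38.p6), and Cxcl5, Cxcl11 and Cxcl16 were not matched.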

Additional observations from a re-analysis of the deposited data

Results flagged for a closer look

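The response to KLA differed between EPM and BMDM for 13 member and time pairs by the limma test of the difference (EPM minus BMDM, log2). The 1 h responses were against untreated cells in EPM and against DMSO 1 h in BMDM. At 1 h the differences were 0.76 for Cxcl2, -2.58 for Cxcl10, -2.13 for Cxcl11 and -0.30 for Cxcl14. At 12 h they were 1.34 for Cxcl1, 1.69 for Cxcl2, 1.84 for Cxcl5, -2.29 for Cxcl9, 1.26 for Cxcl10, -2.49 for Cxcl11, -0.70 for Cxcl12, -2.99 for Cxcl14 and 1.80 for Cxcl16. Those of Cxcl5, Cxcl9 and Cxcl11 use controls that were not well above background and are not exact sizes. With each macrophage array as 1 sample, no gene tested passed at 1 h, members included. At 12 h Cxcl1, Cxcl9, Cxcl11 and Cxcl16 passed in that fit, where far fewer of all genes did than with channels as samples.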

How the results depend on the processing

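Of 110 member results, all kept direction and side of the threshold without the filter on dim probes and with quantile normalization over single channels. With one replicate left out, 618 of 640 did, 18 lost the threshold and 4 gained it. With the dye, and so the replicate number, as a replicate block, 106 of 110 did and 4 gained it, among them Cxcl13 in EPM at 1 h (adjusted p = 0.0447) and in EPM minus BMDM at 12 h (adjusted p = 0.0358), and the B cell count at 1 h was 1 in place of 0. That count was 2 with offset 16, 2 in the authors' table, 1 with each cell type fitted alone and 3 with B cell labels exchanged, and for 12 h minus 1 h in B cells it was 5 with offset 16. With arrays as samples the counts were 3 in EPM at 1 h, 0 in B cells at 12 h, 5, 5 and 0 for 12 h minus 1 h in EPM, BMDM and B cells, and 0 and 3 for EPM minus BMDM at 1 and 12 h. Over macrophage arrays alone, an alternative chosen after seeing the data, the counts were 3 in EPM at 1 h, 5 and 5 between times, and 0 and 4 between macrophages. Both array fits reversed Cxcl13 in EPM at 12 h (-0.089), Cxcl12 and Cxcl13 between times in EPM (0.65 and -0.36), Cxcl10 between times in BMDM (0.16) and Cxcl12 in EPM minus BMDM at 12 h (0.017). These fits set KLA against both controls of a cell type pooled, not against the control of the same time. With 1 array per KLA condition, they called fewer of all genes in every comparison than the fit over channels. No gene passed in them for EPM minus BMDM at 1 h, and none in B cells at 12 h. In EPM the Cxcl12 controls averaged 10.38 untreated and 12.01 with DMSO 12 h, and the Cxcl13 controls 9.80 and 8.64. Feature Extraction's processed signals reversed Cxcl5 in EPM minus BMDM at 1 h (-2.82), and Cxcl10 in B cells at 1 h was reversed in the authors' table (-0.62) and with labels exchanged (-0.57). The cause was not tested. Values past the threshold in neither setting changed sign 73 times. Processed signals also brought Cxcl9 at 1 h past the threshold (1.11 in EPM, 1.94 in BMDM). Requiring a signal well above background in every channel kept no member and gave no value. Dim controls limit the folds of Cxcl5 in BMDM, those of Cxcl9 and Cxcl11 in both EPM and BMDM, and most B cell values.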
